A study of Mus musculus with 10 samples.

Results

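Transcripts for the uptake, activation and mitochondrial beta-oxidation of fatty acids were followed in hearts and ventricular cardiomyocytes of mice with a knockdown (KD) of the vesicular acetylcholine transporter (VAChT) and of wild-type (WT) mice. The set held 37 genes, listed by name for their place in the pathway. The list was drawn up with earlier results of these data known, so counts and medians over it are a description and not a test. A gene was measured where a probe set of the Affymetrix array was annotated with its symbol alone, and the brightest probe set over the 10 arrays was kept. This gave 35 of the 37 genes, out of 19938 genes measured in all. Acsl1, an acyl-CoA synthetase, had no probe set under this rule, and Cpt1b, the muscle form of carnitine palmitoyltransferase 1, had only one that was annotated with several symbols. Both are not analysed here.

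There were 3 KD and 3 WT arrays of ventricular cardiomyocytes, and 2 KD and 2 WT arrays of whole heart. All mice were male C57BL/6 animals of 3 months that had received no treatment, and the series title names the KD genotype as VAChT KDHOM. Each array carried RNA pooled from 2 samples. No source used here ties the arrays to separate animals, so p-values reflect how much these arrays varied, and part of that variation may be technical. VAChT, the product of Slc18a3, loads acetylcholine into secretory vesicles, and the sources used here do not say what the KD allele alters in that transcript. Slc18a3 had log2 intensities of 7.32 and 7.84 in the KD hearts, against 7.34 and 7.72 in the WT hearts, and of 6.22, 6.52 and 6.21 in the KD cardiomyocytes, against 6.06, 6.37 and 6.04 in the WT cardiomyocytes. The KD and WT arrays overlapped in each tissue, so this probe set did not separate the genotypes. All values are log2 intensities as the authors deposited them. Array medians over all probe sets lay between 5.82 and 5.93 in cardiomyocytes and between 7.25 and 7.31 in hearts, so the tissues were apparently normalized separately, and KD was compared with WT within each tissue.

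The labelled tissues were set against marker genes, as intensities summed on the linear scale. The 8 cardiomyocyte markers summed to 82514 to 84476 in KD and 80748 to 85152 in WT cardiomyocytes. The 7 fibroblast markers summed to 1524 to 2081 in KD and 1238 to 2394 in WT cardiomyocytes, and to 16095 to 16394 in KD and 18567 to 18944 in WT hearts. One heart array stood apart. The 11 measured thymocyte and T cell markers summed to 13939 in KD heart replicate 1 and 1357 in KD heart replicate 2, against 1169 to 1478 in the WT hearts. Results on hearts are therefore also given without KD heart replicate 1.

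Fatty acids reach the cardiomyocyte from circulating lipoproteins and albumin, cross the membrane with the help of CD36 and FATP1, and are bound inside by a small carrier protein. They are activated to acyl-CoA, moved into mitochondria as carnitine esters, and shortened by a repeating cycle of dehydrogenation, hydration, a further dehydrogenation and thiolysis. Electrons of the first step pass through the electron transfer flavoprotein to the respiratory chain, and malonyl-CoA brakes entry at the carnitine step. The adult heart takes most of its energy from this route.

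Promoter windows of 6 genes described below are shown. Hadha and Hadhb share bases head to head, Cd36, Acadvl and Echs1 hold the nuclear receptor motif AGGTCA, and Etfrf1 had the largest difference in hearts. Each window runs from 250 bases before to 50 bases after a start annotated by RefSeq on build GRCm38.p6. Hadha lies on the minus strand of chromosome 5 (window chr5:30154931-30155230) and Hadhb on the plus strand (window chr5:30155003-30155302), with 272 bases between their starts. Capitals in these windows mark the 228 bases that both windows share, read from opposite strands.
Hadha: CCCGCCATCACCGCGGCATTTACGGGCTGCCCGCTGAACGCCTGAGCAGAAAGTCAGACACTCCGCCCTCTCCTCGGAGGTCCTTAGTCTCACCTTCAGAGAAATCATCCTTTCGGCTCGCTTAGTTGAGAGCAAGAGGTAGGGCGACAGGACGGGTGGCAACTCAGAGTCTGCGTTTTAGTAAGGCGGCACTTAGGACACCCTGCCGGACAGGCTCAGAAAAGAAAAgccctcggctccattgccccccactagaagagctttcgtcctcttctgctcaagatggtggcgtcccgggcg
Hadhb: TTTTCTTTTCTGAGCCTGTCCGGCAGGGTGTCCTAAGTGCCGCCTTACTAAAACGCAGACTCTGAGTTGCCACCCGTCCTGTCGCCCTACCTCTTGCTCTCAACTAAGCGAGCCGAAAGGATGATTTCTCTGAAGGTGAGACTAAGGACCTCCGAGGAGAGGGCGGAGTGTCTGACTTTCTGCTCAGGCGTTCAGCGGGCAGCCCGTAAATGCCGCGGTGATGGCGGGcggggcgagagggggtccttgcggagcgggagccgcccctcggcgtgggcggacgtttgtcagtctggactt
In the next windows capitals mark AGGTCA or its complement TGACCT. Cd36 was read from the minus strand (chr5:17835847-17836146), around an annotated start 53063 bases inside the outer end of the gene, its only window in the table used here. Acadvl (chr11:70015379-70015678) and Echs1 (chr7:140116372-140116671) were also read from the minus strand. Etfrf1 had 2 windows, of which the one with the lower coordinates is shown, read from the plus strand (chr6:145210884-145211183). Neither of its windows held AGGTCA or its complement.
Cd36: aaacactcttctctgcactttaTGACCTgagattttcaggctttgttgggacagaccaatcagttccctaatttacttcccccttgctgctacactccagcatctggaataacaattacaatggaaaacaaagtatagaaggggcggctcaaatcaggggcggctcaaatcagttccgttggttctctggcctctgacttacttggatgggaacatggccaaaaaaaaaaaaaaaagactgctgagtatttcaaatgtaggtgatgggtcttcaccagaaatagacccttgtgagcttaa
Acadvl: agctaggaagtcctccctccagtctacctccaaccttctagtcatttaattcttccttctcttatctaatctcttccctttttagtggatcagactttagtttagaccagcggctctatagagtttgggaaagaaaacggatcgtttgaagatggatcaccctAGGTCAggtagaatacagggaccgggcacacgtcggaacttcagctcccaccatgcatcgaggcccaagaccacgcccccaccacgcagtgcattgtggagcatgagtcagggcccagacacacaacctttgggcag
Echs1: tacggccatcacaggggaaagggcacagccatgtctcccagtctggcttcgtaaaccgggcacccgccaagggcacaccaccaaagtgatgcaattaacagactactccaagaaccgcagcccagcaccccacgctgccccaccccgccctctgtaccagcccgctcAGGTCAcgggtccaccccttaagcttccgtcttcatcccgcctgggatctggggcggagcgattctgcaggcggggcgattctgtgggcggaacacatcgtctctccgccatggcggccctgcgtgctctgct
Etfrf1: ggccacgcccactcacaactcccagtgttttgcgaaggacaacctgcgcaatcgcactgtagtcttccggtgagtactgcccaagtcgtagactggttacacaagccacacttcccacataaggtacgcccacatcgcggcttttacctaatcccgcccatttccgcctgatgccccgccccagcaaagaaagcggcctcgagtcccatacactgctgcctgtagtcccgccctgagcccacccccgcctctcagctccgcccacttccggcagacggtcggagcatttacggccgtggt

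Of the 35 measured genes, 29 had a promoter window, with 35 windows in all since some had several. AGGTCA, searched on both strands, was found in 10 of these 35 windows (28.6%), which belonged to 9 genes: Acacb, Acadm, Acadvl, Acsl6, Cd36, Cpt1a, Echs1, Plin5 and Ucp3. The same letters occurred in 14.2% of the 19168 windows of all measured genes. The longer motif TNAAGGTCA, which contains AGGTCA and is bound by estrogen-related receptors, was found in 1 window (2.86%), that of Acsl6, against 0.991% of all windows. The direct repeat of AGGTCA with 1 base between, bound by peroxisome proliferator-activated receptors, was in 0 of the 35 windows and in 0.0417% of all. The GC box GGGCGG stood in 26 of the 35 windows (74.3%), against 49.2% of all windows, and median GC content was 60.7% in the windows of the set and 57.3% in all. CCAAT was in 16 windows (45.7%), against 37.4% of all. The NRF1 element was in 1 window (2.86%), that of Etfdh, against 1.45% of all, and CACGTG was in 1 window (2.86%), that of Slc27a1, against 8.24% of all. All motifs were searched on both strands. These matches describe letters in short windows and were not tied to binding.

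In whole hearts all 35 genes had a lower mean in KD than in WT. The median KD minus WT difference was -0.26 on the log2 scale (0.837-fold), with single genes between -0.71 and -0.047, while the median over all 19938 genes was 0.008. A difference below 0 was found for 47.4% of all genes. Both KD hearts lay below both WT hearts for 24 of the 35 genes, against 15.4% of all genes, and no gene of the set had both KD hearts above both WT hearts, against 14.2% of all genes. By step, the median difference was -0.20 for 5 genes of uptake and supply, -0.13 for 2 of stored lipid, -0.31 for 4 of activation and thioester breakdown, -0.13 for 6 of the carnitine shuttle and its control, -0.30 for 13 of the spiral and -0.46 for 5 of electron transfer and uncoupling. Lower transcript per cell and fewer cells of a type cannot be told apart in whole tissue.

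limma with Benjamini-Hochberg adjustment over all genes called 0 of the 35 genes in hearts (0% of all genes called), with adjusted p-values of 0.713 for Etfrf1 and of 0.95 to 1 for the others. At an unadjusted p under 0.05, 13 of the 35 genes were lower and 0 higher, against 2.49% of all genes lower and 2.44% higher (4.93% in both directions). The count of genes lower at that p depended on the arrays, as did its share over all genes. It was 13 of 35 without KD heart replicate 1 (4.66% of all genes), 7 without KD heart replicate 2 (2.26%), 1 without WT heart replicate 1 (1.11%), 14 without WT heart replicate 2 (2.97%), and 5 when the heart arrays were fitted alone (1.54%). The number of genes of the set below 0 was 30 to 35 over these fits. Without KD heart replicate 2, the lone KD heart is replicate 1, with its high thymocyte signal, and takes its spread from the other groups. That fit called 303 of 19938 genes (1.52%) and 1 gene of the set, Etfrf1 (-0.78, limma adjusted p 0.0493). Over all genes the median half-width of the 95% interval was 0.31 in hearts.

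**Figure D1:**
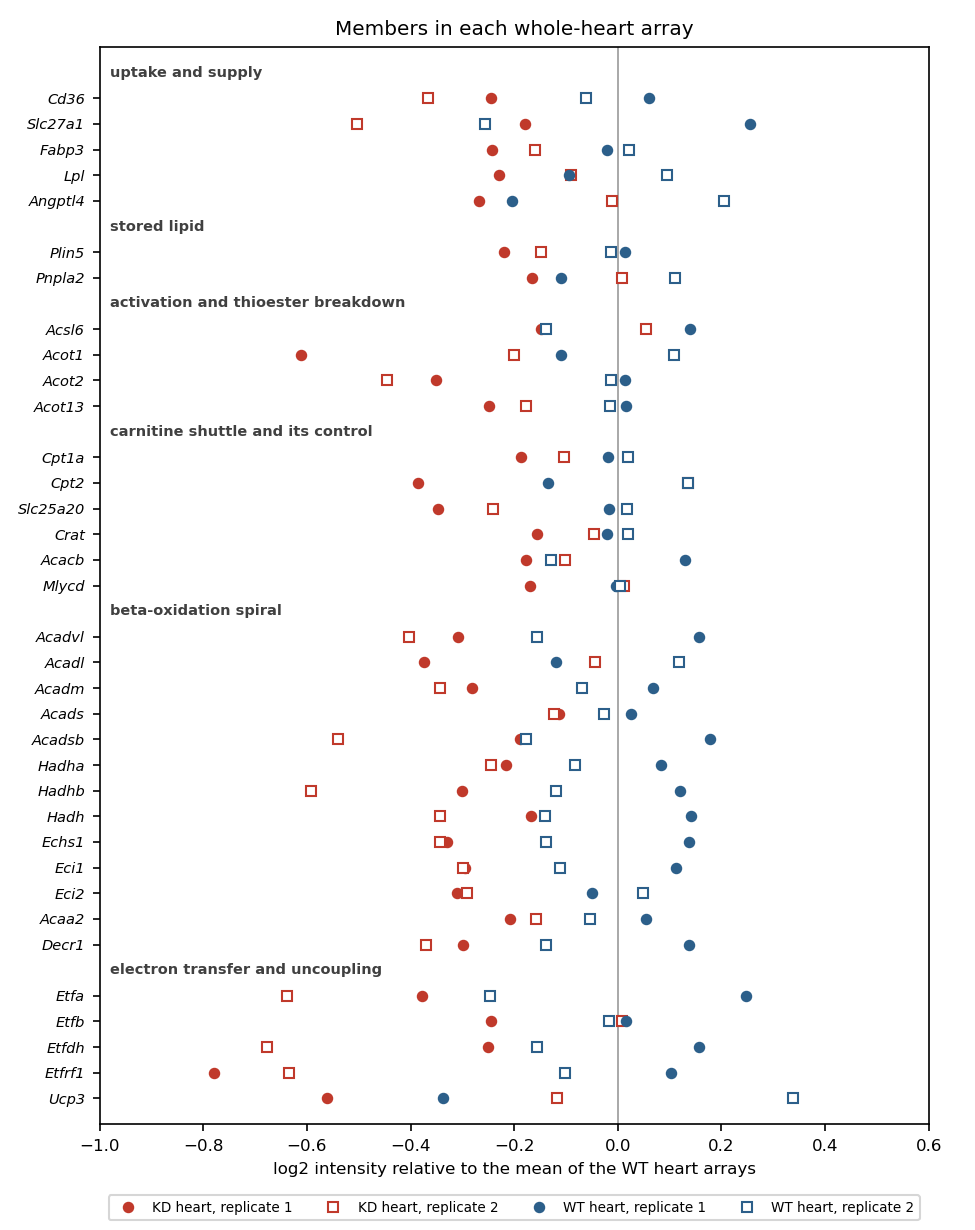
Log2 intensity of each of the 35 genes in each whole-heart array, relative to the mean of the 2 WT hearts, grouped by step of the pathway (circles replicate 1, squares replicate 2; red KD, blue WT). Red symbols lie left of both blue symbols for 24 of the 35 genes, and for 12 of the 13 genes of the spiral, against 15.4% of all genes.

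The difference was seen in each KD heart. Relative to the WT mean, the median of the 35 genes was -0.25 in KD heart replicate 1 and -0.20 in KD heart replicate 2, against 0.026 and -0.026 in the WT hearts. In KD heart replicate 1, where the median thymocyte and T cell marker was 3.14 above the WT mean, all 35 genes lay below the WT mean. In KD heart replicate 2, where that median was -0.002, 30 of 35 did. Of all 19938 genes, 11803 lay below the WT mean in KD heart replicate 1 and 8246 in KD heart replicate 2. A fit without KD heart replicate 1 has replicate 2 as its only KD heart. Its median and count are therefore the same by construction and add no separate check. The summed level of the 35 genes was 102556 to 103585 in KD and 120298 to 128469 in WT hearts.

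Marker lists of other cells also differed between the heart arrays, and their part in the result was not tested. Of 11 thymocyte and T cell markers 11 were higher in the mean of the KD hearts (median 1.60), which rested on KD heart replicate 1. Relative to the WT mean their median was 3.14 in that array and -0.002 in KD heart replicate 2, where 6 of 11 lay below it. Of 8 cardiomyocyte markers 8 were lower (median -0.11), at a summed level of 95595 to 97869 in KD and 101731 to 108301 in WT hearts. Endothelial markers were lower for 7 of 7 genes (-0.20), at 9350 to 9829 in KD and 10165 to 11236 in WT hearts, and fibroblast markers for 7 of 7 (-0.31). Smooth muscle markers were lower for 5 of 5 (-0.14), at 6496 to 7252 in KD and 7480 to 8567 in WT hearts. Of 5 adipocyte markers 5 were lower (-0.20), with a summed level of 1151 to 1258 in KD and 1292 to 1492 in WT hearts. Brown adipocyte markers were lower for 2 of 3 (-0.29), at 758 to 865 in KD and 827 to 1233 in WT hearts. Both measured red cell markers were higher (0.66), at a summed level of 5395 to 6350 in KD and 2774 to 4415 in WT hearts. The 5 atrial markers were lower (-0.79) and differed between the KD hearts, at 13120 in KD heart replicate 1 and 5574 in KD heart replicate 2, against 13966 to 15708 in WT hearts. Macrophage markers were lower for 2 of 8 genes, with a median of 0.046, at 6191 to 6655 in KD and 5694 to 7057 in WT hearts.

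For supply and uptake, Cd36, the fatty acid translocase of the cell membrane, had log2 intensities of 13.11 and 12.99 in the KD hearts, against 13.41 and 13.29 in the WT hearts. Both KD hearts lay below both WT hearts, with a difference of -0.31 (SE 0.11, unadjusted limma p 0.0139). Its window is among those above with an AGGTCA match. Fabp3, the fatty acid carrier of heart muscle cytosol, measured 13.17 and 13.25 in the KD hearts, against 13.39 and 13.43 in the WT hearts, again without overlap, and differed by -0.20 (SE 0.092, unadjusted limma p 0.0484). A second Fabp3 probe set differed by -0.20. Slc27a1, the transporter FATP1, measured 9.45 and 9.12 in the KD hearts, against 9.88 and 9.37 in the WT hearts. Here KD heart replicate 1 lay above WT heart replicate 2, so the arrays overlapped, and the difference was -0.34 (SE 0.18, unadjusted limma p 0.0859). Lpl, the lipoprotein lipase that frees fatty acids from triglyceride-rich particles, overlapped between genotypes and differed by -0.16 (SE 0.13, unadjusted limma p 0.222). Angptl4, which inhibits that lipase, overlapped too, at -0.14, and was dim, at 0.048 in WT and -0.134 in KD hearts relative to the array median. The enzyme and its inhibitor were thus both measured lower, and neither passed the test.

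Of the genes of stored lipid, Plin5, a coat protein of lipid droplets in oxidative tissue, measured 8.99 and 9.06 in the KD hearts, against 9.22 and 9.19 in the WT hearts. The KD arrays lay below the WT arrays, at a difference of -0.18 (SE 0.15, unadjusted limma p 0.241). Pnpla2, the adipose triglyceride lipase, overlapped between genotypes and differed by -0.078 (SE 0.12, unadjusted limma p 0.533).

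Acyl-CoA synthetases activate fatty acids and acyl-CoA thioesterases release them again, so the genes of this step act in opposite directions. Acot2, a mitochondrial thioesterase, measured 10.22 and 10.13 in the KD hearts, against 10.58 and 10.56 in the WT hearts, a difference of -0.40 (SE 0.15, unadjusted limma p 0.0217). KD and WT hearts did not overlap. Acot1, its cytosolic paralog, had 6.56 and 6.98 in the KD hearts, against 7.07 and 7.28 in the WT hearts, without overlap, and differed by -0.41 (SE 0.21, unadjusted limma p 0.0764). The paralogs are close in sequence and their probe sets may share signal. Acot13, another thioesterase, did not overlap either and differed by -0.21 (SE 0.13, unadjusted limma p 0.13). Acsl6, the synthetase of the set that could be measured, differed by -0.047 (SE 0.14, unadjusted limma p 0.746) with overlapping arrays. The synthetases Acsl4 and Acsl5 lie outside the set and were counted with the other pathway genes below. They differed by 0.067 and -0.12 in hearts, also with overlap. Acot1 and Acsl6 were dim in hearts. Relative to the array median they lay at -0.072 and 0.087 in WT hearts and at -0.52 and -0.003 in KD hearts.

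In the carnitine shuttle, Slc25a20, the carrier that exchanges acylcarnitine for carnitine across the inner mitochondrial membrane, measured 11.09 and 11.20 in the KD hearts, against 11.42 and 11.46 in the WT hearts. Both KD hearts lay below both WT hearts, and the difference was -0.29 (SE 0.12, unadjusted limma p 0.0296). Cpt1a, the outer membrane palmitoyltransferase of liver type, differed by -0.15 (SE 0.16, unadjusted limma p 0.387) without overlap, and Cpt2, its inner membrane partner, by -0.13 with overlap. Cpt2 rested on KD heart replicate 1, and was 0.13 without it. Crat, carnitine acetyltransferase, which buffers acetyl-CoA, differed by -0.10 (SE 0.11, unadjusted limma p 0.361) without overlap. Genes on both sides of malonyl-CoA were also measured. Acacb, which makes malonyl-CoA at the mitochondrion, differed by -0.14 (SE 0.15, unadjusted limma p 0.371), and Mlycd, which breaks it down, by -0.079; the KD and WT arrays overlapped for both.

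In the spiral all 13 genes lay below the WT mean in KD heart replicate 1 and again in KD heart replicate 2. Of all 19938 genes, 11803 did so in KD heart replicate 1 and 8246 in KD heart replicate 2. Both KD hearts lay below both WT hearts for 12 of the 13, against 15.4% of all genes. Hadhb, the thiolase subunit of the trifunctional protein, measured 12.92 and 12.62 in the KD hearts, against 13.34 and 13.10 in the WT hearts. Its difference was -0.45 (SE 0.13, unadjusted limma p 0.00509), with a 95% interval of -0.73 to -0.16, and a second Hadhb probe set differed by -0.46. Hadha, the hydratase and dehydrogenase subunit whose window shares bases with that of Hadhb, measured 12.65 and 12.62 in the KD hearts, against 12.94 and 12.78 in the WT hearts, a difference of -0.23. The arrays did not overlap for either subunit, and the Hadha value lay inside the interval of Hadhb.

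Among the acyl-CoA dehydrogenases, which open each round, Acadm (medium chain) measured 12.87 and 12.81 in the KD hearts, against 13.22 and 13.09 in the WT hearts and differed by -0.31 (SE 0.12, unadjusted limma p 0.0218). Acadvl, for very long chains, measured 10.54 and 10.45 in the KD hearts, against 11.01 and 10.69 in the WT hearts, a difference of -0.36. Both were free of overlap. Acads, for short chains, differed by -0.12 and Acadsb, for short branched chains, by -0.37, also without overlap, whereas Acadl, for long chains, differed by -0.21 with KD heart replicate 2 above WT heart replicate 1. Acadl was the 1 gene of the spiral with overlapping arrays.

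Echs1, the short-chain enoyl-CoA hydratase, measured 10.51 and 10.50 in the KD hearts, against 10.98 and 10.71 in the WT hearts. The KD hearts were nearly equal and both below WT, with a difference of -0.34 (SE 0.12, unadjusted limma p 0.0128). Eci1, an isomerase needed for unsaturated chains, measured 11.17 and 11.17 in the KD hearts, against 11.58 and 11.36 in the WT hearts, likewise separated, and differed by -0.30 (SE 0.12, unadjusted limma p 0.0245). The other isomerase Eci2 differed by -0.30, and Decr1, the reductase for polyunsaturated chains, by -0.33. Hadh, the short-chain hydroxyacyl-CoA dehydrogenase, differed by -0.26, and Acaa2, the thiolase of medium chains, by -0.18. These 4 had no overlap between genotypes.

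Electron transfer held the gene with the largest difference of the set. Etfrf1 encodes a small regulator of the electron transfer flavoprotein and measured 8.16 and 8.31 in the KD hearts, against 9.04 and 8.84 in the WT hearts. The KD hearts were both below the WT hearts by more than the gap within either genotype, with means of 8.23 ± 0.10 in KD hearts and 8.94 ± 0.14 in WT hearts (SD, n = 2 each). The difference was -0.71 (SE 0.15, unadjusted limma p 0.000322), or 0.612-fold, with a 95% interval of -1.02 to -0.39 and an adjusted limma p of 0.713. Etfa, the alpha subunit of the flavoprotein, measured 11.73 and 11.47 in the KD hearts, against 12.35 and 11.86 in the WT hearts and differed by -0.51 (SE 0.16, unadjusted limma p 0.00825). Etfdh, the oxidoreductase that passes its electrons to ubiquinone, measured 12.81 and 12.38 in the KD hearts, against 13.22 and 12.91 in the WT hearts and differed by -0.46 (SE 0.15, unadjusted limma p 0.0103). Both were separated between genotypes, though the arrays of one genotype also differed among themselves. Etfb, the beta subunit, measured 11.72 and 11.98 in the KD hearts, against 11.99 and 11.95 in the WT hearts and overlapped, at a difference of -0.12. The subunits of one protein thus had unlike differences, and no test between them was run. Ucp3, a carrier of the uncoupling protein family in muscle mitochondria, measured 8.03 and 8.47 in the KD hearts, against 8.25 and 8.93 in the WT hearts, with overlap, and differed by -0.34 (SE 0.30, unadjusted limma p 0.278).

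In isolated ventricular cardiomyocytes the same 35 genes lay near 0. The median KD minus WT difference was -0.025 (0.983-fold), single genes lay between -0.25 and 0.10, and 24 of 35 were below 0, against 50% of all genes. limma called 0 of the 35 (0% of all genes called), each with an adjusted p of 1. The set had 0 genes lower at an unadjusted p under 0.05, against 1.11% of all genes, and 0 higher, against 0.988% (2.1% in both directions). No gene of the set had all KD arrays below all WT arrays, against 3.21% of all genes, and 1 had them above, against 2.99%. The median over the set was 0.062 in KD replicate 1, -0.071 in KD replicate 2 and -0.11 in KD replicate 3 relative to the WT mean, and -0.019, -0.015 and 0.032 in the WT arrays. The KD arrays thus lay on both sides of the WT arrays. Without KD cardiomyocyte replicate 2 the median of the set was 0.008, with 16 of 35 genes below 0, and without KD cardiomyocyte replicate 1 it was -0.080, with 28 below 0. The median half-width of the 95% interval over all genes was 0.25.

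The gene with non-overlapping cardiomyocyte arrays was Etfb, at 12.75, 12.82 and 12.76 in the KD cardiomyocytes, against 12.62, 12.74 and 12.73 in the WT cardiomyocytes. All KD arrays were higher, by 0.082 (SE 0.089, unadjusted limma p 0.375). The lowest p belonged to Mlycd, at 8.76, 8.50 and 8.68 in the KD cardiomyocytes, against 8.83, 8.75 and 8.95 in the WT cardiomyocytes. The arrays overlapped, and the difference was -0.20 (SE 0.11, unadjusted limma p 0.0846). Ucp3 varied most among KD arrays, at 8.95, 7.81 and 8.201 in the KD cardiomyocytes, against 8.58, 8.54 and 8.58 in the WT cardiomyocytes. Its difference of -0.25 (SE 0.25, unadjusted limma p 0.332) rested on KD replicates 2 and 3, while KD replicate 1 was above every WT array.

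By step, the medians in cardiomyocytes were -0.12 for uptake and supply, 0.017 for stored lipid, -0.096 for activation and thioester breakdown, -0.077 for the carnitine shuttle, -0.019 for the spiral and 0.023 for electron transfer and uncoupling. All 6 genes of the carnitine step were below 0, between -0.20 and -0.017. Cd36 differed by -0.14 (SE 0.088, unadjusted limma p 0.145) and Angptl4 by -0.18 (SE 0.18, unadjusted limma p 0.333). The droplet protein Plin5 differed by 0.074 (SE 0.12, unadjusted limma p 0.554) and the lipase Pnpla2 by -0.040 (SE 0.10, unadjusted limma p 0.691). The thioesterases Acot1 and Acot2 differed by -0.19 (SE 0.17, unadjusted limma p 0.299) and -0.17 (SE 0.12, unadjusted limma p 0.187). Acacb differed by -0.16 (SE 0.12, unadjusted limma p 0.229). In the spiral, where 8 of 13 genes were below 0, Eci1 differed by 0.10 (SE 0.095, unadjusted limma p 0.309) and Acads by -0.087 (SE 0.098, unadjusted limma p 0.392). All of these arrays overlapped between genotypes. Macrophage markers were lower in KD cardiomyocytes for 8 of 8 genes, at a summed level of 401 to 466 in KD and 409 to 796 in WT arrays, and their part in these values was not tested.

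**Figure D2:**
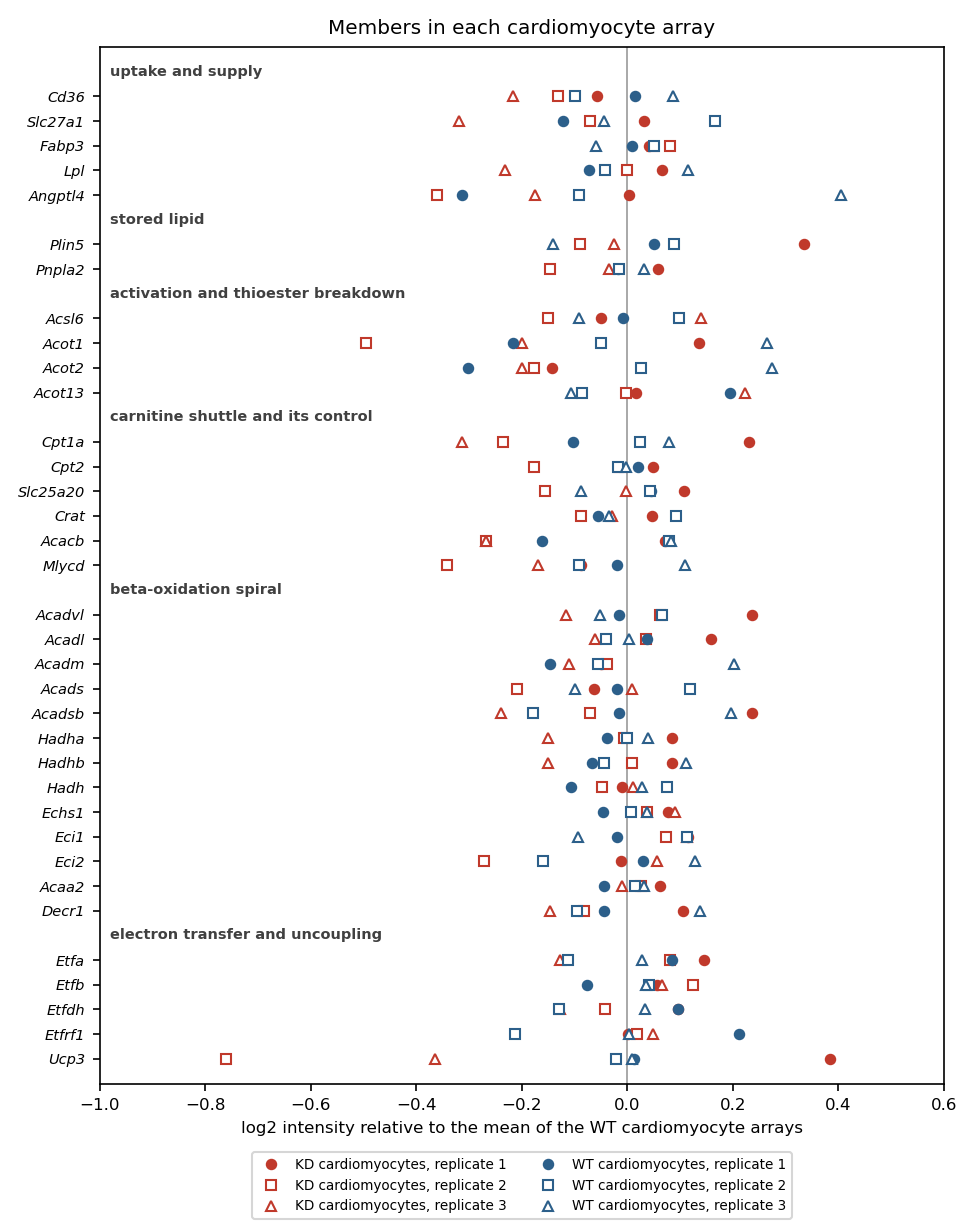
Log2 intensity of each of the 35 genes in each cardiomyocyte array, relative to the mean of the 3 WT arrays, grouped by step (filled circles replicate 1, squares replicate 2, triangles replicate 3; red KD, blue WT). Red and blue symbols overlap for all genes but 1 (Etfb), and Ucp3 and Acot1 are spread widely among the KD arrays.

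The difference between both KD effects was tested directly, as the effect in hearts minus the effect in cardiomyocytes. It was below 0 for 32 of 35 genes, against 48.8% of all genes, with a median of -0.22 for the set and 0.005 for all genes. limma called 0 genes (0% of all genes called), and every gene of the set had an adjusted p of 0.999. Of the 35, 8 were lower at an unadjusted p under 0.05, against 1.74% of all genes, and 0 were higher, against 1.76% (3.49% in both directions). Etfrf1 had -0.71 in hearts and 0.023 in cardiomyocytes, a difference between the effects of -0.73 (SE 0.19, unadjusted limma p 0.00191). The same difference was -0.41 (SE 0.15, unadjusted limma p 0.0185) for Echs1, -0.40 (SE 0.15, unadjusted limma p 0.0204) for Eci1 and -0.54 (SE 0.21, unadjusted limma p 0.0235) for Etfa. Echs1, Eci1 and Etfa each had a positive value in cardiomyocytes, at 0.068, 0.10 and 0.032. Over the 35 genes, heart and cardiomyocyte differences had a Pearson r of -0.069 (-0.022 over all genes), given as a description since the genes share arrays. The tissues differ in their labelling protocol as well as in their cells, and these cannot be told apart.

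**Figure D3:**
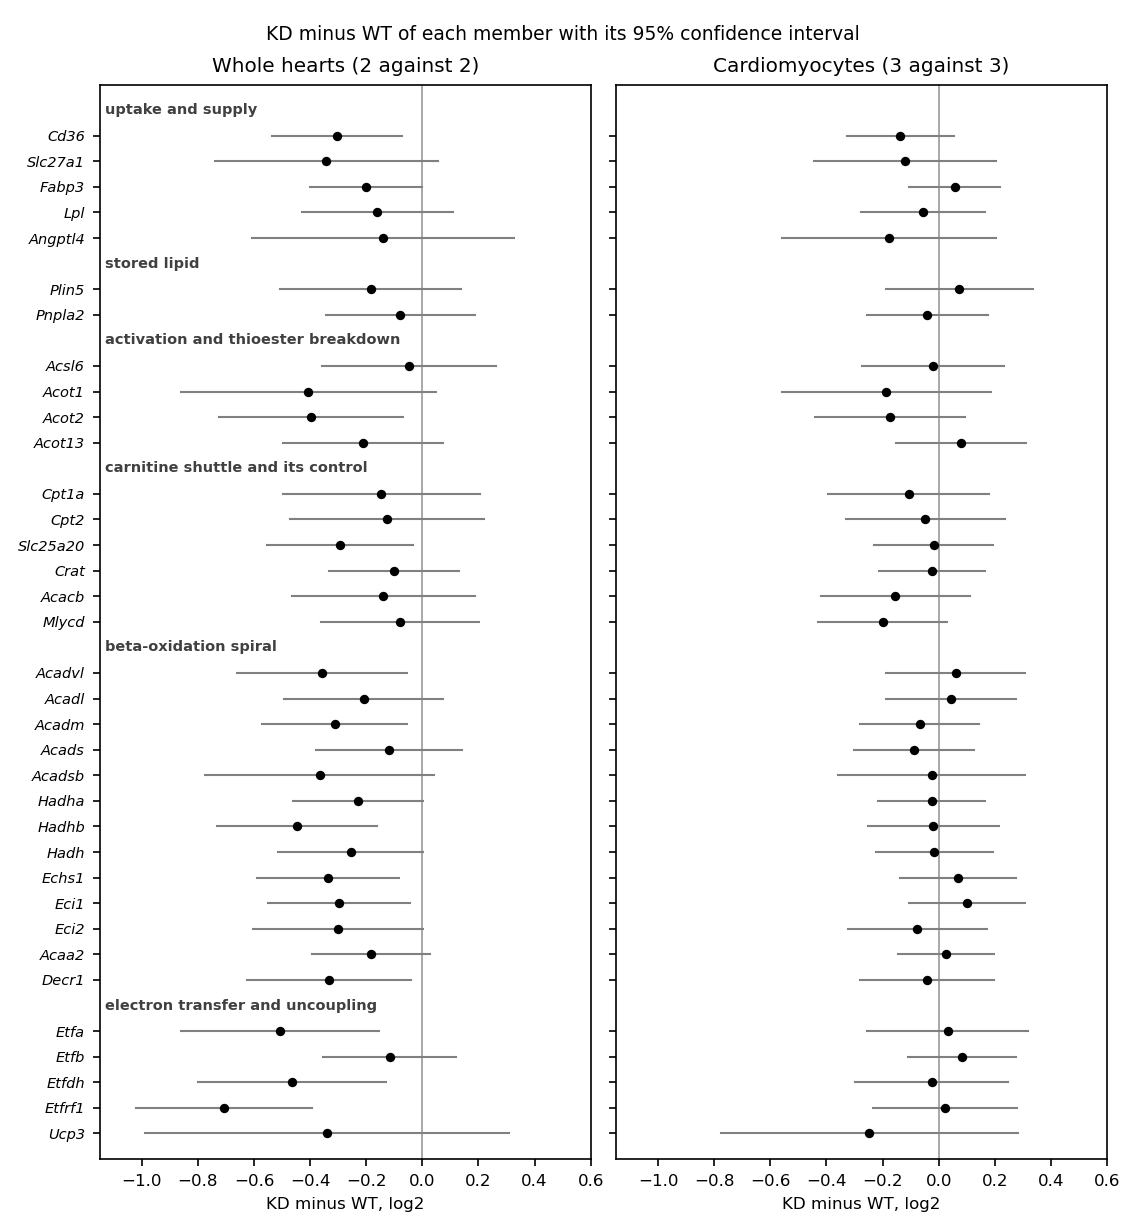
KD minus WT difference of each of the 35 genes on the log2 scale in whole hearts (left) and in cardiomyocytes (right), with points for the limma estimate and bars for its 95% confidence interval. All heart points lie left of 0, between -0.71 and -0.047, and the cardiomyocyte points lie between -0.25 and 0.10 with every interval crossing 0.

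Lists of neighbouring energy pathways and of contractile genes were set beside the pathway in hearts. All 21 measured genes of pyruvate oxidation and the citric acid cycle, which burn the acetyl-CoA that beta-oxidation yields, were lower in KD hearts. Their median was -0.29. At an unadjusted limma p under 0.05, 14 were lower, against 2.49% of all genes. This count also depended on the fit. It was 4 when the heart arrays were fitted alone (1.54% of all genes). With the trend on intensity described below removed, it was 1 (1.73% of all genes). Both KD hearts lay below both WT hearts for 15, against 15.4% of all genes. Relative to the WT mean their median was -0.23 in KD heart replicate 1 and -0.32 in KD heart replicate 2, against 0.078 and -0.078 in WT hearts. Of 36 genes of respiratory complex I, 28 were lower, with a median of -0.12, and the KD hearts were unlike each other, at -0.21 in replicate 1 and -0.007 in replicate 2. Of 17 sarcomere genes 16 were lower, with a median of -0.15, at -0.20 and -0.086 in the KD hearts. In cardiomyocytes the medians were 0.035 for pyruvate oxidation and the citric acid cycle, 0.089 for complex I and 0 for the sarcomere. No test between lists was run, so the values are not called particular to fatty acid oxidation.

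**Figure D4:**
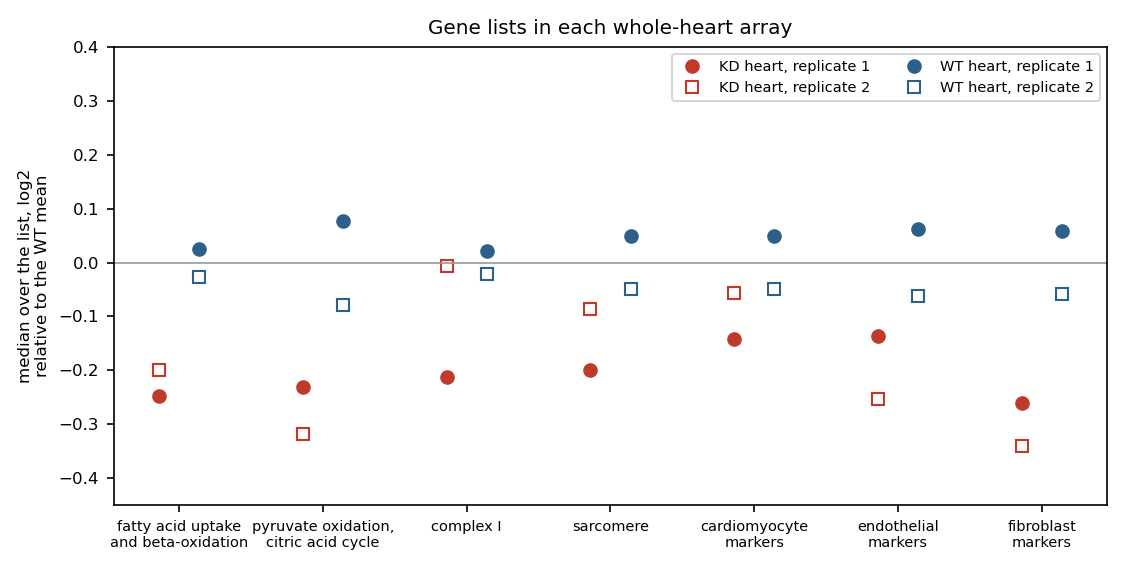
Median log2 intensity over each gene list in each whole-heart array, relative to the mean of the WT hearts (red KD, blue WT, circles replicate 1, squares replicate 2). Both KD hearts lie below both WT hearts for every list shown except complex I, where KD heart replicate 2 is at -0.007. Among marker lists not drawn, red cell markers were higher in both KD hearts. Thymocyte and T cell, macrophage and brown adipocyte markers overlapped between genotypes. Adipocyte, smooth muscle and atrial markers were lower in both KD hearts.

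Most of the set is brightly expressed, and in hearts the difference between genotypes moved with brightness over all genes. Of the 35 genes 24 were in the brightest of 10 equal intensity bins of heart genes. All genes of that bin had a median of -0.09, 73.2% of them were below 0 and 33.3% had both KD hearts below both WT hearts. The 24 genes of the set had a median of -0.24, and 18 of them were separated in this way. In the next bin the median was -0.057 over all genes and -0.30 over 5 genes of the set. The remaining 6 genes lay in dimmer bins. When a smooth trend of the difference on intensity was removed from the KD hearts, the median of the set was -0.16, 32 of 35 genes were below 0 (49.3% of all genes), and 3 were lower at an unadjusted p under 0.05 (1.73% of all genes). The same step left -0.16 for pyruvate oxidation and the citric acid cycle, -0.009 for complex I and -0.023 for the sarcomere. In the brightest bin of cardiomyocyte genes, which held 28 of the set, the median was 0.005 over all genes and -0.025 over the set.

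**Figure D5:**
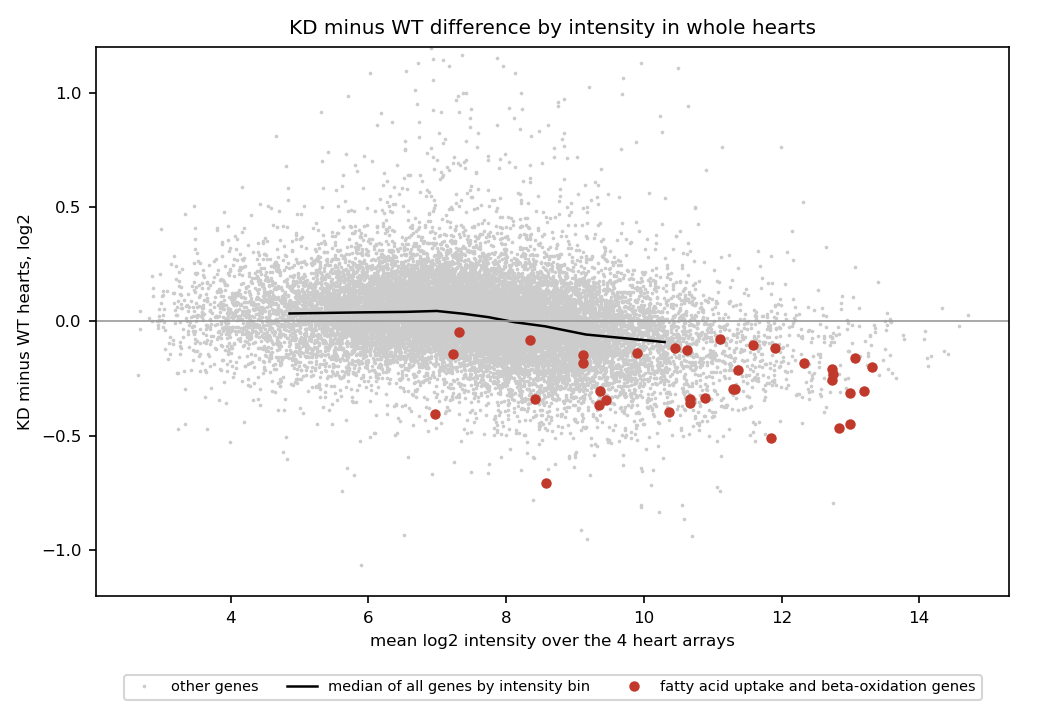
KD minus WT difference in whole hearts (log2) against mean log2 intensity over the 4 heart arrays, for all genes (grey) and the 35 genes of the pathway (red), with a line through the medians of all genes by intensity bin. The line reaches -0.09 in the brightest bin, and most red points lie below it; 33 genes outside 1.2 in either direction are not drawn.

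Other genes of the pathway, 54 listed for peroxisomal oxidation, ketone and branched-chain use, lipid droplets and further carriers and thioesterases, were counted in the same way. Of the 50 measured, 41 were lower in KD hearts, with a median of -0.18. Both KD hearts lay below both WT hearts for 28, against 15.4% of all genes, and above them for 4, against 14.2%. At an unadjusted limma p under 0.05, 9 were lower, against 2.49% of all genes, and 0 higher, against 2.44%. Acat1, the mitochondrial acetoacetyl-CoA thiolase, measured 11.48 and 11.22 in the KD hearts, against 11.94 and 11.81 in the WT hearts, well separated, and differed by -0.52 (SE 0.12, unadjusted limma p 0.00089), with an adjusted limma p of 0.871. Oxct1, which activates acetoacetate in ketone use, differed by -0.49 (SE 0.16, unadjusted limma p 0.00924), and Hibch, an enzyme of valine breakdown, by -0.46 (SE 0.14, unadjusted limma p 0.00717). Etfbkmt, the methyltransferase that modifies the beta subunit of the flavoprotein, differed by -0.64 (SE 0.22, unadjusted limma p 0.0106). In cardiomyocytes 20 of the 50 were below 0, with a median of 0.029. There Acot9, a mitochondrial thioesterase, differed by 0.32 (SE 0.14, unadjusted limma p 0.0396) and Bdh1, the ketone body dehydrogenase, by 0.37 (SE 0.20, unadjusted limma p 0.085). Crot and Ehhadh, both of peroxisomal oxidation, differed by -0.25 (SE 0.14, unadjusted limma p 0.0956) and -0.24 (SE 0.15, unadjusted limma p 0.126).

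Levels of the set in the tissues themselves were compared in WT arrays only as a description, since the tissues had apparently been normalized separately. Relative to each array's median, 34 of the 35 genes were higher in WT cardiomyocytes than in WT hearts, with a median log2 difference of 1.04, against 0.19 for all genes. With dim genes left out, 33 of the 34 genes of the set that remained were higher. Their median was then 1.06, against 0.52 for all genes kept, so the set stood less far above genes of similar brightness. Acot2 stood 3.01 higher and Etfb 2.12 higher in cardiomyocytes, while Slc25a20 was 0.085 higher and Etfdh 0.005 lower. After quantile normalization of all arrays together, 26 of 35 were higher, by a median of 0.41, against -0.004 for all genes. As deposited, with no centring, 11 of 35 were higher and the median was -0.35, against -1.203 for all genes. The sign of the comparison between tissues therefore depends on the scaling. The set stayed above the median of all genes under each of these 3 scalings. Centring only shifts each array by a constant, so the centred and deposited values are not separate checks of this.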

How the data were processed

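RNA of cardiomyocytes and hearts was hybridised to Affymetrix arrays, 1 colour. The table the authors deposited gives log2 intensities for 35556 probe sets. The submitters' processing notes name RMA and Partek (versions not given in the sources used here). Background correction and quantile normalization by RMA bring the intensity distributions of its arrays together, and dim probe sets then show compressed differences. The number of arrays limits the precision.

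Genes were named from the platform annotation: 21789 probe sets had 1 symbol, 1621 had several and 12146 were unlisted, and only the first kind entered. Where a gene had several probe sets (999 genes) the brightest was kept, leaving 19938 genes, with no filter. All 10 arrays were fitted in limma 3.58.1 (R 4.3.3) with 4 group means and eBayes with an intensity trend (6 residual and 6.81 prior degrees of freedom). Contrasts were KD minus WT in each tissue and the difference between them, two-sided, at 0.05 after Benjamini-Hochberg adjustment over all 19938 genes. Groups of this size cannot reach that threshold in a permutation test.

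The genes and lists, and the alternatives, were chosen with earlier results of these data known. SE and p are given per step for up to 4 genes in hearts and 2 in cardiomyocytes with the smallest p, for 4 of the difference, and for 4 other pathway genes per tissue. Gene lists are described by counts and medians, with no test. Promoter windows came from a RefSeq table (GRCm38.p6). Alternatives were quantile normalization, array-median centring, leaving out dim genes, averaging the probe sets of a gene, 1 tissue in the fit, no eBayes trend, array weights, a loess (span 0.3) trend on intensity removed, the replicate number as a block, an adjusted p of 0.1, and each array left out. Levels as deposited were added after seeing the data. Replicates correlated at 0.992 to 0.995 in cardiomyocytes, 0.98 in KD hearts and 0.993 in WT hearts. Scripts were tested on simulated data, in 5 runs with 200 of 19938 genes altered. Of genes altered 1.5-fold, 54.4% were found in cardiomyocytes and 34% in hearts. Of those altered 2-fold, the shares found were 91.6% in cardiomyocytes and 82.4% in hearts. False calls averaged 8.2 per run in cardiomyocytes and 6.8 in hearts. The simulated noise was drawn separately for each gene, with a spread pooled over the tissues and no deviation shared by genes of an array. Changes below 1.5-fold were not simulated. The shares found therefore do not carry over to the heart differences reported here.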

Additional observations from a re-analysis of the deposited data

How the results depend on the processing

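The median difference of the 35 genes in hearts was below 0 under every alternative run. It was -0.26 as reported, -0.21 after quantile normalization, -0.30 after centring on array medians, -0.16 with the intensity trend removed, and -0.27 to -0.20 when 1 array was left out. Centring brought the genes below 0 among all 19938 to 12063, against 9460 as reported. In cardiomyocytes the median was -0.080 to 0.008 with 1 array left out. The number of genes called in hearts was 0 as reported and 1 with the replicate block. It was 0 to 303 with 1 array left out: 303 without KD heart replicate 2, which leaves KD heart replicate 1 as the only KD heart, 2 without WT heart replicate 1, 1 without KD heart replicate 1 and 0 without WT heart replicate 2. For the difference between the effects the count was 0 to 237, with 237 without KD heart replicate 2 and 2 without WT heart replicate 1, and 0 genes were called with the replicate block. In cardiomyocytes it was 0 under all settings, block included. Arrays with the same number deviated together at r of 0.15, 0.13 and -0.052 in cardiomyocytes and 0.23 in hearts. In cardiomyocytes not every array correlated best with its own number. In hearts each array did, but with 2 arrays a group the deviations mirror each other, so this is 1 value and not several. The numbers were not taken to pair samples. The level difference between WT cardiomyocytes and WT hearts was 1.04 as reported, 0.41 after quantile normalization and -0.35 as deposited. With the intensity trend removed, Pnpla2 turned to 0.035, Crat to 0.022 and Etfb to 0.011 in hearts. With 1 array left out, 6 of the 35 genes turned sign in hearts: Cpt2 ranged from -0.39 to 0.13, Acsl6 from -0.19 to 0.091, Angptl4 from -0.35 to 0.065, Pnpla2 from -0.19 to 0.032, Mlycd from -0.17 to 0.011 and Etfb from -0.24 to 0.010. Of these, 5 turned without KD heart replicate 1 (Angptl4 did not), 3 without WT heart replicate 2 (Angptl4, Pnpla2 and Cpt2) and Acsl6 also without WT heart replicate 1. In cardiomyocytes 21 of the 35 turned sign. Of those named there, Angptl4 ranged from -0.33 to 0.025, Plin5 from -0.057 to 0.16, Pnpla2 from -0.090 to 0.012 and Ucp3 from -0.56 to 0.010. Etfrf1 ranged from -0.81 to -0.61 in hearts, and passed at -0.78 without KD heart replicate 2. Where a leave-out left 1 array in a group, its spread was taken from the other groups. The cause of these shifts was not tested.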
